A study of Mus musculus with 2 samples.

Results

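Genes of T cell development and of the thymus were described in the adrenal gland of young mice. The set holds 35 genes of the 55536 in the gene table, each matched by its symbol to 1 gene. By role, 7 mark the immature stage, 10 encode the T cell receptor and its coreceptors, 9 encode signalling and surface proteins, 5 encode transcription and chromatin factors, and 4 are genes of the thymus epithelium. The members were chosen on the difference between these same libraries, so their differences are given as a description, with no test.

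The study holds 1 group of 2 total RNA libraries, depleted of ribosomal RNA and carrying ERCC spike-ins (synthetic RNAs added in known amounts). All RNA came from adrenal glands of female mice of the hybrid strain B6CASTF1/J, aged 14 days, with no treatment or engineered allele named, and 300 ng went into each library. For replicate 1 both the tissue and the library label name a pool of 3x Females, whereas for replicate 2 the tissue label names Female 04 and the library label repeats the pool. Both carry 1 donor identifier, so the spread between them may be technical in part. The depth was 37586172 expected counts for replicate 1 and 33844950 for replicate 2.

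T cells arise in the thymus, where precursors cut and rejoin the gene segments of the T cell receptor. The RAG1 and RAG2 proteins make the cuts, terminal transferase adds bases at the joints, and thymocytes that carry a beta chain pair it with a surrogate alpha chain before passing through a stage that bears both CD4 and CD8. The epithelium of the thymic cortex guides these steps, and mature T cells that leave no longer express the recombinase. T cells are not a main cell type of the adrenal gland.

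The libraries stood apart in the tissues they reported, which bears on each value that follows. All 10 adrenal cortex genes and all 8 chromaffin cell genes listed were measured in both, with median log2 differences, replicate 2 over replicate 1, of -0.78 and -0.71. All 8 hepatocyte genes were over 2-fold higher in replicate 2, with a median of 6.31 and summed levels of 323 against 18899 TPM (transcript levels scaled for length and depth). Of 6 skeletal muscle genes 5 were over 2-fold higher, with a median of 4.92 and summed levels of 22.3 against 478.9 TPM. Red cell genes went the other way, 8 of 9 over 2-fold lower in replicate 2, with a median of -1.34 and summed levels of 8794 against 2733 TPM. The part of these tissues in the differences of the members was not tested. In bulk RNA, fewer cells of a type and less RNA per cell cannot be told apart.

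The members together held 14507 counts, 0.0386% of the library, in replicate 1 and 2049 counts, 0.00605%, in replicate 2. In replicate 1 every member had at least 10 counts and 29 of 35 reached 1 TPM. In replicate 2, 2 members had 0 counts, 20 had fewer than 10, and 5 reached 1 TPM. For a gene with 0 counts the true level may reach 3 counts, which is 7.98e-06% of replicate 1 and 8.86e-06% of replicate 2. Intervals given with each fold are exact (Clopper-Pearson, 95%) and, like these limits, cover counting error only. Every fold rests on 1 library a side and has no replicate check.

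**Figure D1:**
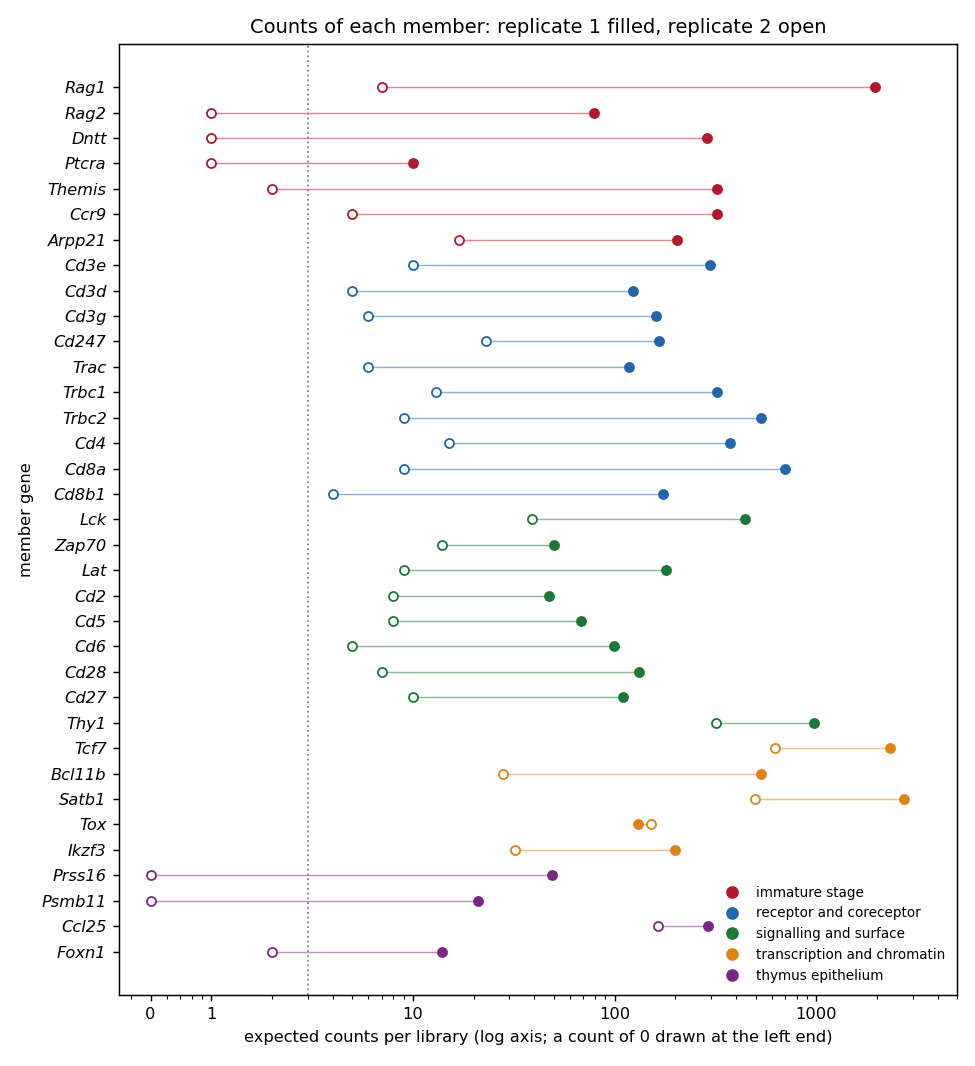
Expected counts of each of the 35 members (log axis, 0 drawn at the left end), with replicate 1 as filled and replicate 2 as open points, coloured by role. The dotted line marks 3 counts, the limit that a count of 0 allows. Replicate 1 lies to the right for every member except Tox.

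Counts were scaled between the libraries with edgeR's TMM, and log2 differences are replicate 2 over replicate 1. Of the 35 members, 33 had a mean count of at least 10. Of these 31 were over 2-fold lower in replicate 2, beside 3.93% of the 17844 genes with that minimum. Over 4-fold lower were 27 members (0.958% of all genes) and over 16-fold lower 15 (0.325% of all genes). The 27 and the 15 both include Prss16 and Psmb11, which had 0 counts in replicate 2. Their log2 differences rest on the prior count of 0.5 added to each gene, so a fold over 16 is not established for them. Within counting error it is not established for Rag2, Cd3e, Cd3d, Cd3g, Trbc1, Cd4 and Cd8b1, whose lower limits ran from 7.30 to 11.9. A fold over 4 is likewise not established for Cd247, Cd2, Cd5, Ikzf3 and Psmb11, whose lower limits lay under 4. No member was over 2-fold higher (8.88% of all genes were). Since many of the lower members pass the minimum only through replicate 1, and since this contrast chose the members, nothing is read from these counts. The median of all genes was -0.01, and the middle 95% of them ran from -1.24 to 4.77.

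**Figure D2:**
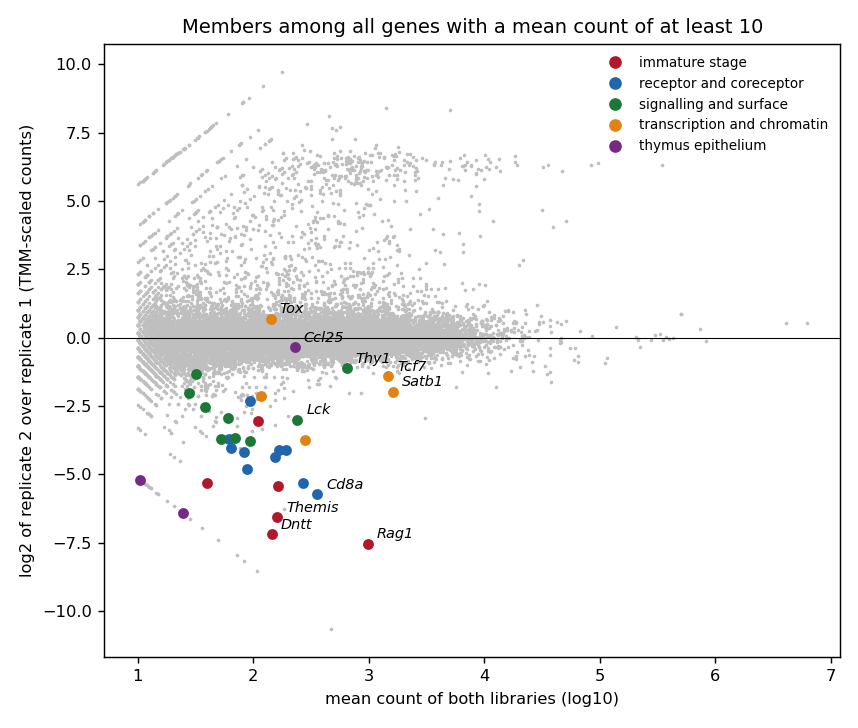
Log2 difference (replicate 2 over replicate 1, TMM-scaled counts) against mean count (log10) for the 17844 genes whose mean count reached 10 in grey, with the 33 members that reach it coloured by role. The members spread downwards from Tox at 0.69 to Rag1 at -7.54.

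The immature stage genes had the lowest median log2 difference of the roles with the main settings. Rag1, which encodes the catalytic recombinase subunit (chromosome 2, 101638282 to 101649501 in mm10), had 1945 counts and 8.64 TPM in replicate 1 against 7 counts and 0.03 TPM in replicate 2. That made it 197.8-fold higher in replicate 1 (interval 95.8 to 493), the fifth lowest log2 difference among all genes with the minimum count. Rag2, its partner in the recombinase, had 79 counts and 1 count (0.88 and 0.01 TPM). Dntt, the terminal transferase, had 288 counts and 1 count (4.58 and 0.03 TPM), 205-fold higher in replicate 1 with a wide interval of 36.5 to 8125. Both genes therefore lay under the limit for a count of 0 in replicate 2, and their folds are known only roughly.

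Themis, needed for thymocyte selection, had 320 and 2 counts (2.73 and 0.01 TPM). Ccr9, the receptor that draws cells towards the thymic chemokine CCL25, had 323 and 5 counts (2.66 and 0.04 TPM), 46.0-fold higher in replicate 1 (19.5 to 143). Arpp21, an RNA-binding protein gene, had 203 and 17 counts (2.39 and 0.18 TPM), 8.50-fold higher (5.18 to 14.9), the smallest fold of the 6 immature stage genes with the minimum count. Ptcra, the surrogate alpha chain, stayed under the minimum with 10 counts and 1 count (0.24 and 0.03 TPM), and its interval of 1.01 to 309 reached nearly to no difference. Over the whole role the counts summed to 3168 and 34, of which Rag1 gave 1945 and 7, and the median log2 difference of the 6 was -5.99. The second transcript table, made from the same reads, gave more estimated counts in replicate 2 for several of these genes, such as 7.45 for Rag2, 10.2 for Themis and 17.0 for Ccr9. There the median was -4.25, near the -4.16 of the receptor genes. With log2(TPM + 0.1) the 2 medians were -4.49 and -4.12, so the order of the roles by size depends on the setting.

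Rag1 and Rag2 face each other on chromosome 2 with their ends 5752 bases apart. B230118H07Rik, a protein-coding gene whose annotated span covers both, had 262 and 223 counts, a log2 difference of 0.26. The gap seen for Rag1 and Rag2 was thus not shared by the gene annotated across them. Of the 35 members 17 overlap another annotated gene, 13 of them one on the other strand. No source used here says whether the counting used strand, though the library kit is directional.

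Promoter sequences are shown for 4 members with large differences, 2 from the immature stage and 2 from the receptor group, so that the stretches just upstream of their starts can be compared. Each is the 250 bases before the RefSeq start (GRCm38.p6, the assembly also named mm10), read on the gene's own strand. Capitals mark E boxes (CANNTG), RUNX cores (TGTGGT) and ETS cores (AGGAAG) on either strand, some of which overlap.
Rag1, chr2:101649533-101649782, minus strand: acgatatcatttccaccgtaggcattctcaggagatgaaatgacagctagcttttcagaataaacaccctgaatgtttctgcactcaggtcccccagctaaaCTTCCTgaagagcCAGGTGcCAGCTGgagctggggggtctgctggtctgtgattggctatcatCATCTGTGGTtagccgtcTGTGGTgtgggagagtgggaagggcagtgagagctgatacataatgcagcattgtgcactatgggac
Dntt, chr19:41029025-41029274, plus strand: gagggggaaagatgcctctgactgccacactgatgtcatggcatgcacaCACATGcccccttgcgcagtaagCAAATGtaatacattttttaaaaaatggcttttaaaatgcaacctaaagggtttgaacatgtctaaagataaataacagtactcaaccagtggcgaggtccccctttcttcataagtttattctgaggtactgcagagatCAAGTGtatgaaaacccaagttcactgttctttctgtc
Cd3e, chr9:45009612-45009861, minus strand: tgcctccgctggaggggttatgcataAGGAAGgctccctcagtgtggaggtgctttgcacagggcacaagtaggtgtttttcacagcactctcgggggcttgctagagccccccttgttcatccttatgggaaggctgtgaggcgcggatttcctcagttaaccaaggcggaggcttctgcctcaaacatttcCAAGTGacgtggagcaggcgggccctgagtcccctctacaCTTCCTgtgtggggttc
Cd8a, chr6:71373177-71373426, plus strand: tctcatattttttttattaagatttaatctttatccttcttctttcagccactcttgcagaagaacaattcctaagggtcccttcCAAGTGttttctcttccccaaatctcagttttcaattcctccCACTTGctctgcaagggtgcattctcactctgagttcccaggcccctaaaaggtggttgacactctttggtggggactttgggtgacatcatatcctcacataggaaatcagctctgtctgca

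The Rag1 stretch holds 3 E boxes, 2 RUNX cores and 1 ETS core, the Dntt stretch 3 E boxes, the Cd3e stretch 1 E box and 2 ETS cores, and the Cd8a stretch 2 E boxes. RefSeq promoters matched 23 of the 35 members, with the most upstream start taken for each gene. An E box was in 19 of 23 (82.6%), beside 66.1% of the 27025 genes with a promoter. An ETS core was in 9 (39.1%, beside 29.2%), a RUNX core in 3 (13.0%, beside 14.2%), the TCF core CTTTGA in 4 (17.4%, beside 14.1%) and the GATA core AGATAA in 3 (13.0%, beside 10.2%). The TATA box TATAAA was in none of the 23, beside 13.0% of all. The median GC content was 56.0% in the members and 52.0% in all. Matches describe these letters only.

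The receptor genes were lower in replicate 2 as a block. The CD3 chains, which carry the receptor's signal across the membrane, lie together on chromosome 9, with Cd3g and Cd3d 1354 bases apart and transcribed away from each other, and Cd3e 11400 bases beyond Cd3d. Cd3e had 297 and 10 counts (6.17 and 0.22 TPM), Cd3d 123 and 5 (3.64 and 0.30 TPM) and Cd3g 161 and 6 (4.50 and 0.20 TPM). Their folds of 21.1 (11.3 to 44.5), 17.5 (7.30 to 54.9) and 19.1 (8.59 to 52.8) in favour of replicate 1 overlapped within counting error. Cd247, the zeta chain, had 165 and 23 counts (3.11 and 0.44 TPM). The interval of its fold of 5.11 (3.29 to 8.28) lay below those of Cd3e and Cd3g but overlapped that of Cd3d. In the second transcript table its log2 difference was -2.17, beside -4.88 for Cd3e, -2.85 for Cd3d and -3.67 for Cd3g.

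Trac, the constant part of the alpha chain, had 118 and 6 counts (5.35 and 0.39 TPM), 14.0-fold higher in replicate 1 (6.24 to 38.9). The beta chain has 2 constant genes, 6848 bases apart on chromosome 6. Trbc1 had 320 and 13 counts (14.6 and 0.64 TPM), 17.5-fold higher in replicate 1 (10.1 to 33.3), and Trbc2 528 and 9 counts (25.7 and 0.44 TPM), 41.8-fold higher (21.8 to 91.8). Trbc2 led Trbc1 by 1.76-fold in TPM in replicate 1 and stood at 0.688 of it in replicate 2, a ratio that rests on 22 counts.

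The 2 genes are near copies, so reads can be shared between them. The second table gave like ratios of Trbc2 to Trbc1, 1.65 and 0.788. Over 518 coding bases they differ at 23, an identity of 95.6%. In the first exon 1 of 375 bases differs, at position 260 counted from the first coding base. The other 143 bases, positions 376 to 518, hold the remaining 22 differences and are printed below from the GENCODE M21 transcripts, 5′ to 3′, with differing bases in capitals.
Trbc1: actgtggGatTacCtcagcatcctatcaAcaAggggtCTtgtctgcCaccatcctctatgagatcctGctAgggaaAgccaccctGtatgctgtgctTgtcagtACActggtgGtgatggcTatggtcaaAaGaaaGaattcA
Trbc2: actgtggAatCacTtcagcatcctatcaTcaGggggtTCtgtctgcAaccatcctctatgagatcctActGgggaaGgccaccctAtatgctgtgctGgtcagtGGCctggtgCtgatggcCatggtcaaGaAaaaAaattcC
Of 419 windows of 100 bases along the Trbc1 coding sequence, 183 (43.7%) occur unchanged in Trbc2. In the deposited gene table the posterior SD of either count over read assignment was 6.36 counts in replicate 1 and 1.06 in replicate 2. These SDs describe read assignment within each library. Whether shared reads bear on the gap between the libraries was not tested.

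Of the coreceptors, Cd8a had 702 and 9 counts (7.57 and 0.09 TPM), 55.5-fold higher in replicate 1 (29.1 to 122). Cd8b1, its partner chain 35932 bases upstream on chromosome 6, had 174 and 4 counts (3.63 and 0.09 TPM), 31.0-fold higher (11.9 to 115). Cd4 had 371 and 15 counts (4.49 and 0.47 TPM), 17.6-fold higher (10.5 to 31.8). In TPM, Cd4 stood at 0.593 of Cd8a in replicate 1 and at 5.22 times Cd8a in replicate 2, where both rest on few counts and the second transcript table gave 1.59 times. Cd8a had 9 counts in the gene table of replicate 2 but 32.7 estimated counts in the second table, the widest gap between the tables among the receptor genes. The 10 receptor genes summed to 2959 and 100 counts, with a median log2 difference of -4.13.

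**Figure D3:**
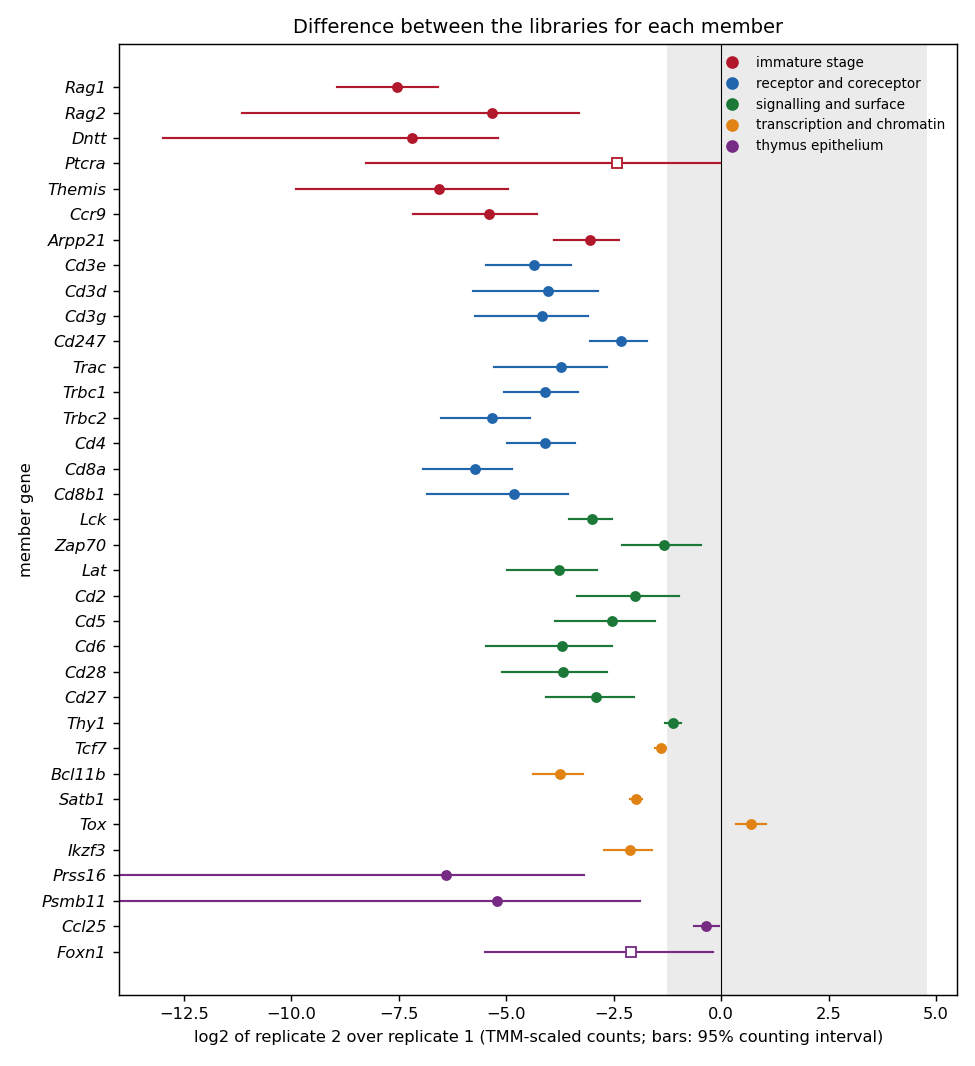
Log2 difference of each member (replicate 2 over replicate 1, TMM-scaled counts) with bars for the 95% counting interval. Open squares are the 2 members under the minimum count, bars cut at the left edge have no lower limit, and the grey band spans -1.24 to 4.77, the middle range of all genes. Rag1 and Dntt lie farthest left, and Tox is the only member to the right of 0.

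The 9 signalling and surface genes differed less by median than the receptor genes, with log2 differences from -3.77 to -1.12. Lck, the kinase that starts receptor signalling, had 443 and 39 counts (7.78 and 0.85 TPM), 8.09-fold higher in replicate 1 (5.82 to 11.5). Zap70, the kinase that binds phosphorylated CD3 and zeta chains, had 50 and 14 counts (0.84 and 0.33 TPM), 2.54-fold higher (1.38 to 4.98). Lat, the adaptor that ZAP70 phosphorylates, had 180 and 9 counts (4.58 and 0.31 TPM), 14.2-fold higher (7.33 to 31.6). The intervals of Zap70 and Lat do not overlap.

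Among surface proteins, the costimulatory receptor genes Cd28 and Cd27 had 132 and 7 counts (0.96 and 0.05 TPM) and 110 and 10 counts (3.14 and 0.33 TPM). The adhesion receptor gene Cd2 had 47 and 8 counts (1.31 and 0.23 TPM). Cd5 and Cd6, related receptors 50338 bases apart on chromosome 19, had 68 and 8 counts (1.01 and 0.12 TPM) and 99 and 5 counts (1.17 and 0.07 TPM). The folds of these 5 ran from 4.18 for Cd2 (1.96 to 10.3) to 14.1 for Cd6 (5.84 to 44.4), and all their intervals overlap.

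Thy1, a surface glycoprotein of thymocytes that neurons and fibroblasts also carry, had the smallest difference of the 9. It had 969 and 317 counts (25.3 and 7.24 TPM) and was 2.18-fold higher in replicate 1 (1.92 to 2.48). Thy1 alone gave 317 of the 417 counts of this role in replicate 2. The median log2 difference of the role was -2.92.

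The transcription and chromatin genes held the most counts, with log2 differences from -3.74 to 0.69. Bcl11b, which commits precursors to the T lineage, had 534 and 28 counts (2.30 and 0.18 TPM), 13.6-fold higher in replicate 1 (9.29 to 20.6). Ikzf3, a zinc finger factor of lymphocytes, had 199 and 32 counts (2.10 and 0.36 TPM), 4.43-fold higher (3.04 to 6.65). Satb1, a chromatin organiser abundant in thymocytes, had 2724 and 496 counts (20.97 and 3.78 TPM), 3.91-fold higher (3.55 to 4.31). Tcf7, the TCF1 factor of early T cells and of Wnt signalling, had 2319 and 625 counts (30.4 and 8.72 TPM), 2.64-fold higher (2.42 to 2.89). Its TPM was the highest of all members in both libraries in the gene table, whereas in the second table Thy1, at 68.3 and 18.9 TPM, stood above Tcf7, at 44.5 and 12.5 TPM. The intervals of Bcl11b, Satb1 and Tcf7 do not overlap one another.

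Tox, a factor needed for CD4 T cells, was the exception, with 131 counts in replicate 1 and 151 in replicate 2 (1.17 and 1.33 TPM). It was 1.62-fold higher in replicate 2 (1.27 to 2.06), and its log2 difference ranged from 0.17 to 0.73 over the scalings, prior counts and tables tried. The log2 differences of the 5 transcription genes thus ran in both directions, and with 1 library a side this spread was not tested.

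Satb1 could be looked at from inside its own span. Within its annotated span on chromosome 17, 5 short gene models of unverified status lie on the same strand. Together they had 509 and 30 counts, 12.1-fold higher in replicate 1, against 3.91-fold for Satb1 itself. The model with most counts, C230085N15Rik, had 148 and 6 counts, 17.6-fold higher (7.88 to 48.6). Likewise Gm26551, a long noncoding gene that overlaps Tcf7 on its strand, had 75 and 8 counts, 6.67-fold higher (3.22 to 16.02), against 2.64-fold for Tcf7. In both cases the overlapping models were further apart between the libraries than the member.

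The thymus epithelium genes had low counts and unlike differences. Prss16, a serine protease of cortical epithelium, had 49 counts and 0 (1.02 and 0 TPM), at least 9.10-fold higher in replicate 1 by the exact interval, and 11.6-fold when 49 counts are set against the limit of 3 counts per library. Psmb11, the subunit of the thymus-specific proteasome, had 21 counts and 0 (0.15 and 0 TPM). The second table gave Psmb11 43.4 and 16.6 estimated counts, a log2 difference of -0.76, so its count of 0 is not shared by both tables and no bound is given. Foxn1, the factor that makes thymic epithelium, was under the minimum with 14 and 2 counts (0.13 and 0.02 TPM, interval of the fold 1.14 to 45.2).

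Ccl25, the chemokine that CCR9 binds and which the small intestine also makes, stood apart with 291 and 164 counts (5.27 and 4.37 TPM). It was 1.26-fold higher in replicate 1 (1.04 to 1.54), at -0.34 on the log2 scale beside a median of -0.01 for all genes. Its difference ranked 3655 from the lowest among the 17844 genes with the minimum count. Its annotated span overlaps the start of Elavl1 on the other strand, which had 2492 and 1609 counts. The 4 genes summed to 5.48 ± 1.54 TPM (SD, n = 2), mostly from Ccl25, and to 8.197 TPM in the second table. The receptor and its ligand therefore differed unlike, Ccr9 at -5.41 and Ccl25 at -0.34.

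Transcript shares were read from both transcript tables where a member had enough counts in each library. The longer of the 2 coding transcripts of Tcf7 took 76.6% and 72.8% of the gene's TPM in replicates 1 and 2 in the first table and 68.2% and 69.0% in the second, so the mix was similar while the level differed. Tox-201 took 70.4% and 75.6% in the first table and 55.1% and 59.3% in the second. For Lck the tables differed, with Lck-201 at 26.2% in the first and 69.3% in the second table in replicate 1 and at 0% in replicate 2 in both. In replicate 2 Lck-202 took 55.1% and 48.5%, with 39 counts behind the gene. For Thy1, the longest transcript took 56.8% and 75.8% in the first table but 25.6% and 37.7% in the second.

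**Figure D4:**
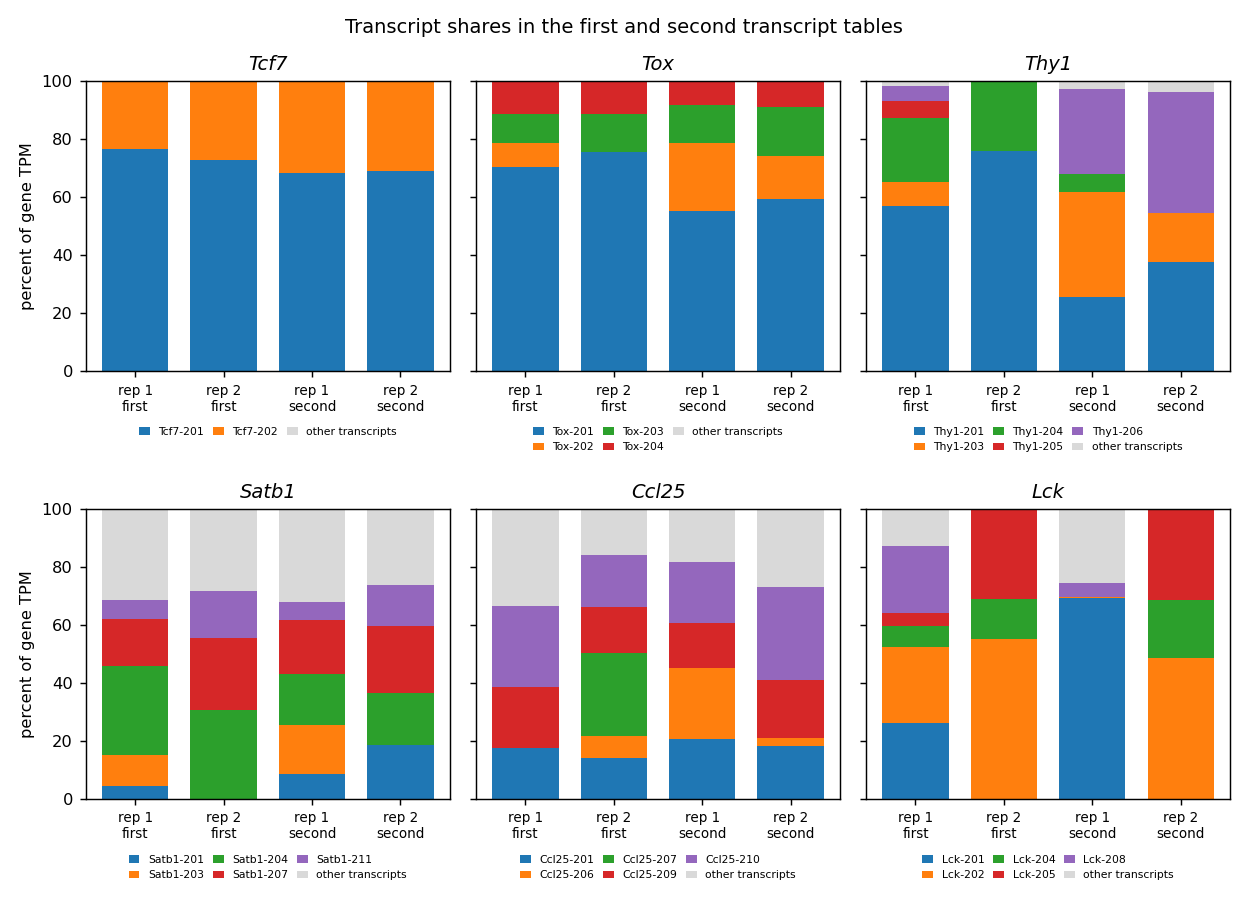
Percent of each gene's TPM given to its transcripts in replicates 1 and 2 (rep 1, rep 2), in the first and the second transcript table, for 6 members. Up to 5 transcripts a gene are named, and grey holds the rest. The 2 Tcf7 transcripts keep like shares in all 4 bars, whereas the shares for Lck and Thy1 depend on the table.

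Total RNA also holds partly spliced transcripts. Transcripts annotated with a retained intron took 7.78% and 9.65% of the members' counts in replicates 1 and 2, beside 3.73% and 2.98% over all protein-coding genes. Ccl25 weighs on these pooled shares, as its 2 such transcripts held 91 and 125 counts in replicate 1 and 53 and 63.45 in replicate 2. The pooled shares are therefore not read as a difference between the libraries. The share was 74.2% for Ccl25 in replicate 1 (75.8% in the second table) and 71.0% in replicate 2 (81.7%). Only 14.7% of its counts in replicate 1 went to coding transcripts (19.3% in the second table). The retained intron share was 46.9% for Arpp21 and 34.0% for Zap70 in replicate 1. It was 0% for Rag1, Tcf7 and Bcl11b, none of which has such a transcript in the table. Most counts of Ccl25 were thus given to models that do not encode the chemokine.

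Other genes of the T lineage, from lists chosen by role, were lower in replicate 2 in part. Values of these and the later lists come from the gene table alone. A bound for a count of 0 was thus not set against the second table, as it was for Psmb11. Of 18 measured genes of receptor signalling 12 were over 2-fold lower, none higher and 6 within 2-fold, with a median log2 difference of -1.55. Ubash3a, a phosphatase-like inhibitor of receptor signalling, had 48 counts and 0, at least 8.91-fold higher in replicate 1 by the exact interval (11.4-fold against 3 counts), whereas the widely expressed phospholipase gene Plcg1 had 2579 and 1860 counts (0.02). Of 20 other thymocyte genes 10 were over 2-fold lower and none higher, with a median of -0.96. Sh2d1a, a lymphocyte adaptor gene, had 30 counts and 0, whereas the genes of highest level were Ly6d, a surface protein gene, with 3859 and 1799 counts (-0.61), and Cd1d1, which presents lipids to NKT cells, with 2563 and 1556 counts (-0.23). Of 20 further transcription genes 7 were lower, 1 higher and 12 within 2-fold, with a median of -0.08. Myb, active in dividing precursors, had 395 and 16 counts, 17.6-fold higher in replicate 1. Tcf12 and Ets1, among the genes of highest level on this list, were at -0.37 and 0.20.

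Other receptor and lymphocyte lists differed unevenly between the libraries. Trdc, the delta chain constant gene and the only gamma delta gene with the minimum count, had 57 counts and 0, at least 10.7-fold higher in replicate 1 by the exact interval (13.5-fold against 3 counts). Of 5 measured genes of peripheral and effector T cells 1 was over 2-fold lower (Icos, 19 and 5 counts). The other 4 lay within 2-fold, and the median was -0.55. Most counts among these 4 fell to S1pr1 (1206 and 1177) and Klf2 (889 and 783). Ifng was at 0 counts in both libraries, and the regulatory T cell factor Foxp3 had 2 counts and 1. Of 12 measured B lineage genes 1 was over 2-fold lower (Igkc, 103 and 34 counts), none higher and 11 within 2-fold, with a median of -0.13. Summed levels of the list were 48.4 and 42.5 TPM. Of these Cd74 gave 16.07 and 22.15 TPM and Ebf1 10.49 and 7.34 TPM. Which cells gave the counts of the peripheral T cell and B lineage lists was not tested. Only 2 of 10 NK and cytotoxic genes were measured, of which Gzma, a granzyme, had 37 counts and 1, and Il2rb 19 and 18.

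Of 12 measured genes on a wider thymus epithelium list, several of which other epithelia and stroma also express, 1 was over 2-fold lower, 3 over 2-fold higher and 8 within 2-fold. The lower one was Tbata, a gene of thymus and testis, with 36 counts and 0, at least 6.597-fold higher in replicate 1 by the exact interval (8.54-fold against 3 counts), and Cldn3, an epithelial junction gene, was furthest the other way with 13 and 406 counts. Aire, the medullary factor, had 2 counts and 0, and Pax1, a factor of the embryonic pharyngeal pouch, 15 and 0, both under the minimum. Of 3 measured lymph node and spleen stroma genes 2 were over 2-fold higher in replicate 2, and Pth, the parathyroid hormone gene, was at 0 in both. All 10 proliferation genes lay within 2-fold, with a median of -0.39.

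**Figure D5:**
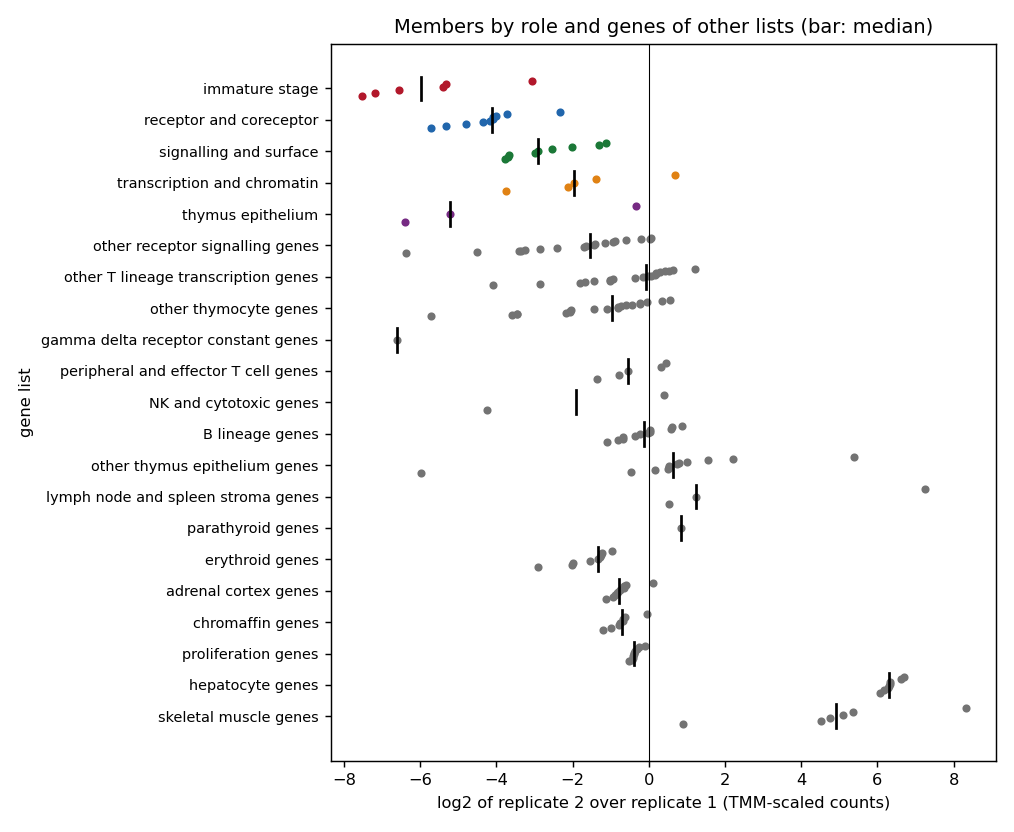
Log2 difference (replicate 2 over replicate 1, TMM-scaled counts) of each measured gene, with members by role in colour, other lists in grey and each list's median as a bar. Medians of lists with more than 1 measured gene run from -5.99 for immature stage genes to 6.31 for hepatocyte genes, and B lineage genes centre near 0 at -0.13.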

How the data were processed

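Gene and transcript tables of 2 libraries were used as deposited, on mm10 with GENCODE M21 per the text deposited with the samples. Expected counts and TPM per gene and per transcript come, per the file headers, from the authors' first set of tables, which was derived from a transcriptome alignment, with the percent of gene TPM given to each transcript in the deposited transcript table. The second deposited transcript table holds estimated counts and TPM. No source used here gives the tools. Each symbol matched 1 gene.

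Expected counts were rounded. Libraries were scaled with edgeR 4.0.16 TMM over GENCODE genes, and log2 differences used a prior count of 0.5 and a mean count of at least 10. For a gene with 0 counts the lower bound of the fold is the exact lower limit, given beside the fold with the 0 set to 3 counts. Outside the members these bounds rest on the gene table only. With 1 group no test was made. Shares of transcripts are the authors' percent values. Alternatives were DESeq2 1.42.0 size factors, library and spike-in totals, other minimums and priors, TPM with 0.1 added, and the second table. Scripts were tested on simulated counts.

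The members and gene lists were chosen with earlier results of these data known, the hepatocyte and skeletal muscle lists last. Outside the members 16 lists held 189 genes, of which 188 matched. All members are named, and of other lists genes among the 3 with the highest mean TPM or with the largest difference in a direction. Foxp3, Ifng, Aire, Pax1, Pth and genes that overlap a member were named after their values were seen.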

Additional observations from a re-analysis of the deposited data

How the results depend on the processing

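No other setting moved the number of members over 2-fold lower in replicate 2 by more than 1.5 times (25 to 33 beside 31). Of 44 alternatives to the member count, role medians and epithelium sum, 38 kept the value within its limits and 6 moved it. The immature stage median of -5.99 became -4.25 in the second transcript table and -4.49 with log2(TPM + 0.1). The transcription and chromatin median of -1.97 became -2.31 with the library total, -2.24 with the spike-in total and -2.26 with log2(TPM + 0.1). The epithelium sum of 5.48 TPM became 8.197 TPM in the second table, and ran from 4.39 to 6.57 TPM with either replicate left out. The cause was not tested.

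Some ratios of members in TPM, as means of log2 over both replicates, changed sign between settings. In replicate 2 these ratios rest on few counts. Rag1 to Rag2, which also rests on few, kept its sign but went from 2.44 to 0.87 in the second table. Cd4 to Cd8a went from 0.82 to -0.0087 in the second table and to between -0.75 and 2.39 with 1 replicate left out. Cd3e to Cd3g went from 0.30 to -0.18 in the second table. With 1 replicate left out, Cd3e to Cd3d ran from -0.45 to 0.76, Cd3e to Cd247 from -1 to 0.99, Trbc2 to Trbc1 from -0.54 to 0.82 and Rag1 to Cd3e from -2.87 to 0.49.

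A scaling to the library total or the spike-ins shifts the median of all genes to -0.35 or -0.28, and Tox stayed above 0 in both. Differences between the libraries could not be recomputed without a replicate. No paired analysis was possible because there is 1 group.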
